A study of Arabidopsis thaliana with 6 samples.

Results

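In Arabidopsis thaliana seedlings, 57 of 13356 measured genes gave an intensity of at least 32 on both wild-type (WT) arrays and under 16 on all 4 arrays of the bin4-1 and bin4-2 mutants. The genes were chosen by those intensities, so their drop from WT is what selected them and is given as a description, without a test. The study hybridised total RNA of whole seedlings to 6 Affymetrix arrays, 2 each from WT, bin4-1 and bin4-2. The labels give the genotype alone, so the age of the seedlings, how they were grown and the kind of mutation in each allele are not known from the sources used here. Whether the 2 arrays of a genotype were separate cultures is not stated, and p-values then reflect only array-to-array spread, possibly technical. The values are the authors' RMA intensities (a background-corrected, between-array-normalised summary of each probe set) on a linear scale.

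BIN4 encodes a plant subunit of the topoisomerase VI complex, an enzyme that cuts and rejoins both strands of DNA so that another duplex can pass through. In Arabidopsis the complex is needed for endoreduplication, the repeated copying of the genome without division by which leaf, root-hair and hypocotyl cells enlarge, and plants lacking it stay dwarf. By its title, the study asks whether the complex keeps heterochromatin, the compact and silent form of chromatin, from spreading into neighbouring active genes. BIN4 (AT5G24630) itself was dim, at 13.8 and 15.3 in WT, 9.85 and 10.2 in bin4-1, and 7.56 and 8.28 in bin4-2. It was lower on every mutant array than on either WT array.

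The name "shut off" would go beyond these arrays. An intensity under 16 was common, since 44.0% to 45.2% of all genes lay under it on each array, WT included. The median of the 57 genes was 45.0 and 46.1 on the WT arrays, 11.9 and 11.2 in bin4-1, and 12.7 and 13.1 in bin4-2. By their group means, that took the middle gene from the 67.7th percentile of all genes in WT to the 38.5th in the mutants. On all 4 mutant arrays, 14 of the genes stayed under 12 and 2 under 8, while 19 stayed at 12 or above. No detection limit was set, so a value this low says only that the probe set was dim, and the falls are differences of fitted group means. A weaker signal from whole seedlings can come from fewer cells of a type or from less RNA per cell, which cannot be told apart here.

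**Figure D1:**
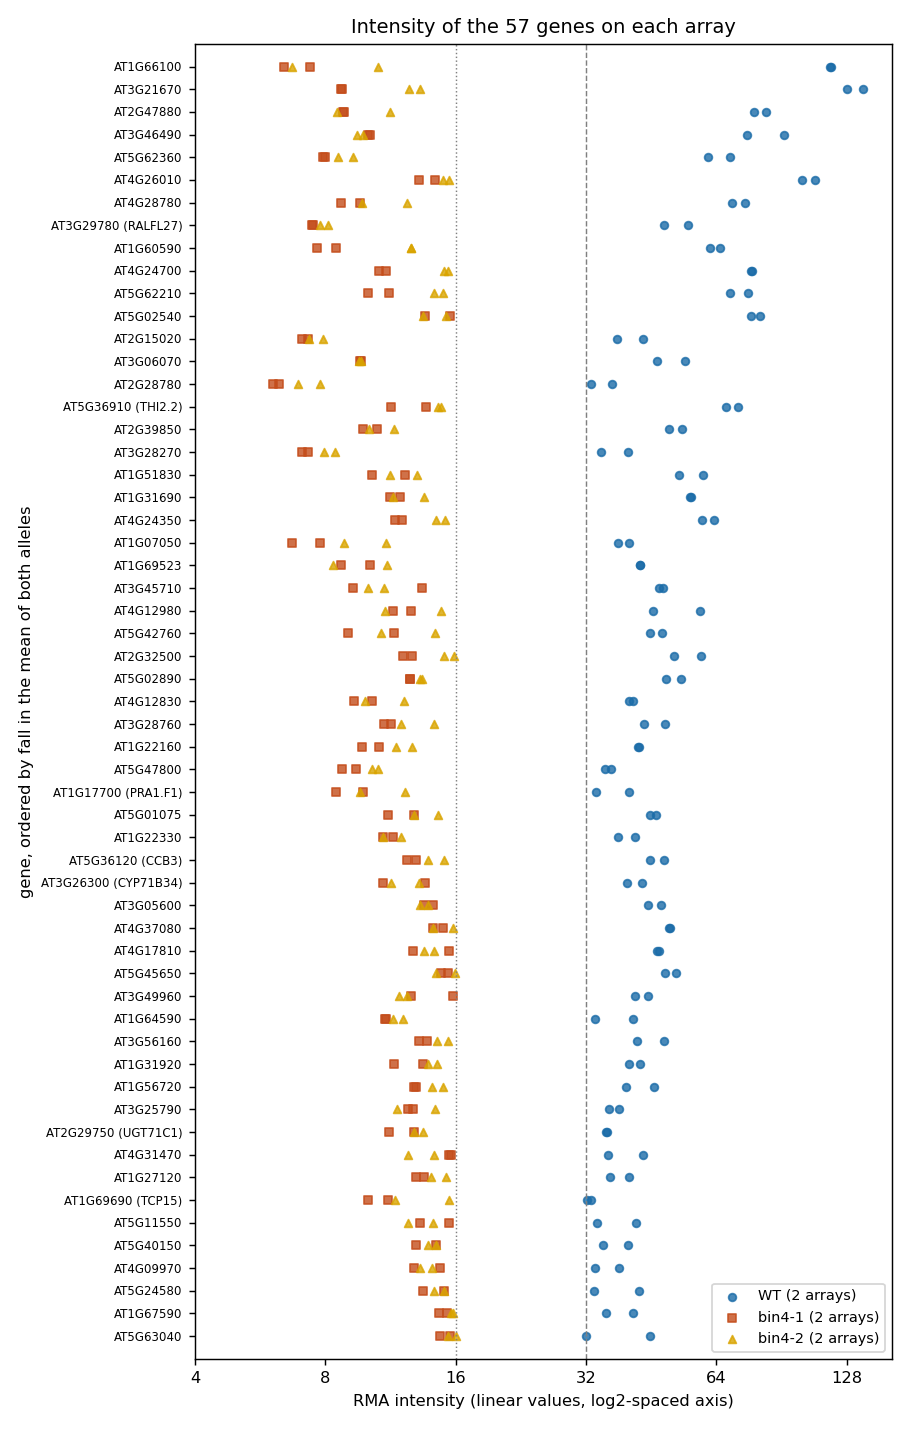
Intensity (log2-spaced axis) of each of the 57 genes on the 6 arrays, ordered by the fall in the mean of both alleles. Circles are WT, squares bin4-1 and triangles bin4-2 arrays, with lines at 16 (dotted) and 32 (dashed). All mutant values lie below 16 and all WT values above 32, as the choice of the genes requires.

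In the mean of both alleles the falls ran from 2.47-fold to 15.4-fold, with a median log2 change of -1.97, against -0.08 over all genes. At least 4-fold lower were 26 of the genes, and at least 8-fold lower were 4. Taken by allele, the median log2 change came to -2.05 for bin4-1 and -1.83 for bin4-2. Both comparisons use the same WT arrays. In the limma fit over all genes, all 57 passed in each allele, beside 25.0% of genes called lower in bin4-1, 26.6% in bin4-2 and 22.2% in both. Nothing is read from that count, because the same values chose the genes.

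A ceiling of 16 favours genes that were modest in WT. Of the 1922 genes whose lower WT value lay between 32 and 64, 47 were chosen, or 2.45%. Of 1501 genes between 64 and 128 it was 9, and of 1730 genes at 128 or more it was 1. Falls of at least 4-fold in each allele were seen for 107 genes, of which 24 belong to the set. The other 83 read 16 or above on at least 1 mutant array. Most genes with falls of this size are thus outside the set because of where they ended.

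**Figure D2:**
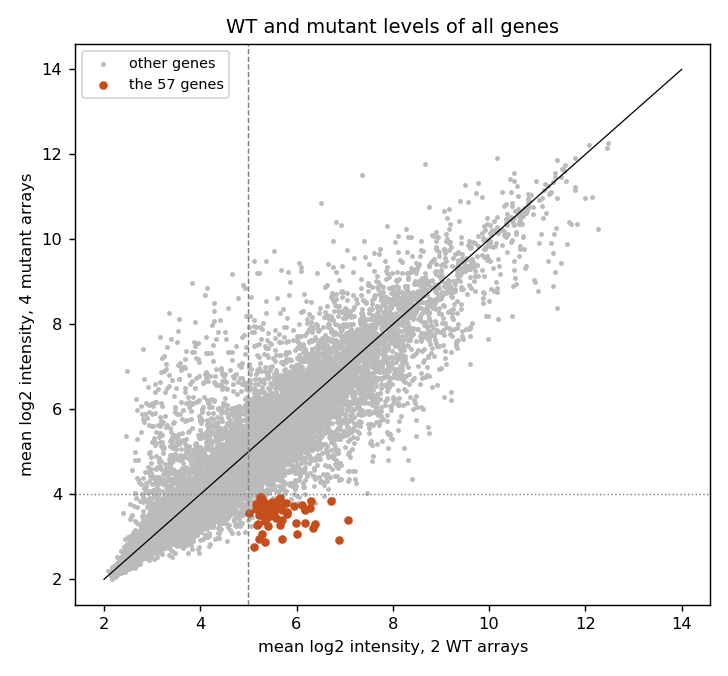
Mean log2 intensity on the 4 mutant arrays against that on the 2 WT arrays, for all 13356 genes (grey) and the 57 genes (orange). The diagonal marks equal levels and the dashed and dotted lines mark log2 values of 5 and 4. The 57 genes lie in the lower right corner left by those lines, with WT means from 5.02 to 7.06.

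The gene table used here names 7 of the 57 genes by symbol and AT3G21670 through a synonym, NPF6.4. The other 49 carry a locus code alone, so no role is given for them. Gene lists were matched on symbols and synonyms, so any of these 49 may belong to a listed family without being counted. The named genes are described first, by role, and the others follow in order of their fall. All are listed as protein coding. Counts of each gene list are read beside the share of all genes called, 25.0% lower and 22.0% higher in bin4-1, and 26.6% lower and 21.1% higher in bin4-2.

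THI2.2 (AT5G36910) encodes a thionin, a short cysteine-rich peptide that is toxic to microbes. It read 71.9 and 67.5 in WT, 11.3 and 13.7 in bin4-1, and 14.6 and 14.8 in bin4-2. Both bin4-2 arrays lay above both bin4-1 arrays, with log2 changes of -2.48 ± 0.12 for bin4-1 and -2.25 ± 0.12 for bin4-2 (limma SE). That order of the arrays was seen in 17.9% of all genes, so alone it is not read as a difference, here or below. The thionins and plant defensins found by symbol did not move one way. Of 9 found by symbol, 3 passed lower and 5 higher in bin4-1, and 2 lower and 5 higher in bin4-2, THI2.2 included. Their median log2 changes were 0.37 and 0.35. The defensin PDF1.4 rose from 13.7 and 15.96 in WT to 277 and 279 in bin4-1 and to 247 and 267 in bin4-2. PDF1.2b rose by 1.82 ± 0.11 in bin4-1 and 2.29 ± 0.11 in bin4-2 on the log2 scale. Each of these rises passed in limma over all genes, with adjusted p from 2.93e-10 to 7.05e-08.

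RALFL27 (AT3G29780) belongs to the RALF-like peptides, secreted signals that bind receptor kinases and adjust cell expansion. It read 55.1 and 48.5 in WT, 7.49 and 7.44 in bin4-1, and 7.77 and 8.10 in bin4-2. It had the greatest fall of the 7 genes with a symbol, 6.72-fold in the mean of both alleles. Of 10 measured RALF-like genes, 4 passed lower and 1 higher in bin4-1, and 3 lower and 1 higher in bin4-2, counting RALFL27. Their median log2 changes were -0.13 and -0.05. RALFL24 changed by -2.11 ± 0.11 and -2.04 ± 0.11 on the log2 scale, and RALFL34 by -1.43 ± 0.10 in each allele. RALFL18 was higher, by 1.12 ± 0.12 and 1.10 ± 0.12.

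AT3G21670 (NPF6.4) belongs to the NPF family, whose members carry nitrate, peptides, hormones or glucosinolates across membranes. It was the brightest gene of the set in WT, at 128.2 and 139.6, and read 8.72 and 8.70 in bin4-1 and 12.5 and 13.2 in bin4-2. Both bin4-2 arrays lay above both bin4-1 arrays, and the fall in the mean of both alleles was 12.6-fold. Of 11 measured NPF genes found by name, 3 passed lower and 3 higher in bin4-1, and 2 lower and 3 higher in bin4-2, with median log2 changes of -0.05 and 0.01. GTR2, a glucosinolate importer of the family, rose by 1.26 ± 0.11 and 0.96 ± 0.11 on the log2 scale. GTR1, its close relative, rose by 0.38 ± 0.10 and 0.46 ± 0.10. AT1G33440, under 16 on every array, passed lower, with changes of -0.35 ± 0.11 and -0.41 ± 0.11.

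A pair of enzymes of small-molecule metabolism changed less. CYP71B34 (AT3G26300), a cytochrome P450 of a family of haem oxygenases, read 43.1 and 39.7 in WT, 13.6 and 10.9 in bin4-1, and 11.3 and 13.1 in bin4-2. The alleles were mixed, with log2 changes of -1.77 ± 0.13 for bin4-1 and -1.76 ± 0.13 for bin4-2. Of 26 P450 genes found by symbol, 5 passed lower and 5 higher in each allele, with median log2 changes of -0.08 and -0.06 against -0.08 and -0.09 over all genes. Its relative CYP71B23 rose from 15.4 on both WT arrays to 157 and 143 in bin4-1 and 136 and 144 in bin4-2 (limma adjusted p = 6.64e-10 in bin4-1 and 7.91e-10 in bin4-2). CYP71B35, the gene after CYP71B34 in locus order, passed lower in both alleles, with log2 changes of -0.76 and -0.75.

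UGT71C1 (AT2G29750) encodes a glycosyltransferase, which attaches sugar to small molecules. It read 35.7 on both WT arrays, 12.8 and 11.2 in bin4-1, and 12.8 and 13.5 in bin4-2, a fall of 2.85-fold in the mean of both alleles. Of 47 measured UGT genes, 15 passed lower and 13 higher in bin4-1, and 17 lower and 13 higher in bin4-2, with a median log2 change of -0.08 in each. UGT73D1 rose by 3.09 ± 0.11 and 3.12 ± 0.11 on the log2 scale. The wider list of sugar and starch genes, which holds UGT genes too, had 66 measured genes. Of these 21 passed lower and 16 higher in bin4-1, and 24 lower and 16 higher in bin4-2, with a median of -0.14 in each.

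TCP15 (AT1G69690) encodes a transcription factor of the TCP family, which sets cell proliferation and endoreduplication in growing organs. It read 32.8 and 32.2 in WT, close to the limit of 32, then 11.1 and 10.02 in bin4-1, and 15.4 and 11.6 in bin4-2. No bin4-2 array was as low as either bin4-1 array. TCP15 was the 1 TCP gene found by symbol among the measured genes.

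CCB3 (AT5G36120) acts in the chloroplast, where CCB proteins help attach a haem to the cytochrome b6f complex of photosynthesis. It read 48.4 and 44.9 in WT, 12.4 and 12.99 in bin4-1, and 13.8 and 15.1 in bin4-2, with both bin4-2 arrays above bin4-1. The only other gene found on its list, YLMG1-2, changed by -0.13 and -0.24 and did not pass. PRA1.F1 (AT1G17700) encodes a prenylated RAB acceptor, a small membrane protein of vesicle traffic. It read 33.7 and 40.1 in WT, 8.47 and 9.77 in bin4-1, and 12.2 and 9.63 in bin4-2, with the alleles overlapping. Of 11 measured PRA1 genes, 2 passed lower and 4 higher in bin4-1, and 3 lower and 4 higher in bin4-2, with median log2 changes of 0.11 and 0.15. PRA1.B4 rose by 1.54 ± 0.11 and 1.58 ± 0.11 on the log2 scale.

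Organ markers were read on the same arrays. Of 5 leaf markers listed, RCA, PRK and PORB were measured, and their summed intensity was 8015 to 8210 in WT, 1934 to 1950 in bin4-1 and 2301 to 2354 in bin4-2. Of 9 root markers, the root-hair expansins EXPA7 and EXPA18 were measured, with sums of 79.1 to 84.9, 48.7 to 50.8 and 38.5 to 38.9. The 2 differed, as EXPA7 changed by -0.21 on the log2 scale in bin4-1, without passing, and by -0.57 in bin4-2. EXPA18 changed by -1.09 and -1.46. CLV3, of 3 meristem markers, read 8.28 to 8.97 in WT and 7.02 to 7.25 in the mutants, and M17, of 4 seed markers, 5.16 to 5.54 throughout. No flower marker was measured. CLV3 and M17 were under 16 on every array, and with no detection limit set, whether they were detected cannot be said. The part of organ makeup in the falls of the 57 genes was not tested.

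AT1G66100 had the greatest fall of the 57 genes, 15.4-fold in the mean of both alleles. It read 117 and 118 in WT, 6.41 and 7.36 in bin4-1, and 6.71 and 10.6 in bin4-2. The mutant arrays of both alleles overlapped, with log2 changes of -4.09 ± 0.18 for bin4-1 and -3.80 ± 0.18 for bin4-2 (limma SE). After AT3G21670 came AT2G47880, with 83.5 and 78.2 in WT, 8.82 and 8.80 in bin4-1, and 11.3 and 8.52 in bin4-2. AT3G46490 read 75.2 and 91.9, then 10.2 and 10.04, then 9.47 and 9.78. These were the other genes at least 8-fold lower, with the alleles mixed in the first and bin4-2 slightly below bin4-1 in the second.

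AT5G62360 read 61.1 and 68.8 in WT, 7.99 and 7.92 in bin4-1, and 8.54 and 9.25 in bin4-2. AT4G26010, at 101 and 108 in WT, was bright on both arrays and read 13.2 and 14.4 in bin4-1 and 15.4 and 14.95 in bin4-2. AT4G28780 read 69.7 and 74.7, then 9.63 and 8.71, then 9.74 and 12.3. In each of these 3 genes both bin4-2 arrays lay above both bin4-1 arrays, as in 17.9% of all genes, and none passed between the alleles. The falls were 7.71-fold, 7.23-fold and 7.20-fold in the mean of both alleles.

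A wider gap between the alleles was seen in the next 3. AT1G60590 read 62.0 and 65.4 in WT, 8.49 and 7.65 in bin4-1, and 12.6 on both bin4-2 arrays. AT4G24700 read 77.5 and 76.9, then 10.6 and 11.03, then 15.1 and 15.4. AT5G62210 read 68.9 and 75.6, then 11.2 and 10.02, then 14.9 and 14.3. By group means all 3 fell further in bin4-1 than in bin4-2, and of them only AT1G60590 passed in the test between alleles given below.

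AT5G02540 read 80.9 and 77.0 in WT, 13.6 and 15.5 in bin4-1, and 13.5 and 15.2 in bin4-2, with the alleles mixed. AT3G06070 had nearly level mutant values, with 54.3 and 46.8 in WT, 9.67 and 9.64 in bin4-1, and 9.68 and 9.58 in bin4-2. Both were between 5.23-fold and 5.48-fold lower in the mean of both alleles. AT2G15020 read 43.4 and 37.6 in WT, 7.30 and 7.05 in bin4-1, and 7.88 and 7.33 in bin4-2. AT2G28780 read 32.9 and 36.8, then 6.07 and 6.26, then 7.78 and 6.91. These last 2 genes were the ones under 8 on all 4 mutant arrays, and AT2G28780 gave the lowest single intensity of the set.

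Of the other genes with a locus code alone, those at least 4-fold lower in the mean of both alleles were AT2G39850, AT3G28270, AT1G51830, AT1G31690, AT4G24350, AT1G07050, AT1G69523, AT3G45710, AT4G12980 and AT5G42760. They ranged from 4.93-fold in AT2G39850 to 4.13-fold in AT5G42760. AT1G07050 stood out among them for its alleles, with 40.3 and 37.9 in WT, 7.78 and 6.70 in bin4-1, and 11.02 and 8.83 in bin4-2.

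Between 3-fold and 4-fold lower were AT2G32500, AT5G02890, AT4G12830, AT3G28760, AT1G22160, AT5G47800, AT5G01075, AT1G22330, AT3G05600, AT4G37080, AT4G17810, AT5G45650, AT3G49960, AT1G64590, AT3G56160, AT1G31920 and AT1G56720, from 3.97-fold in AT2G32500 to 3.12-fold in AT1G56720. Under 3-fold lower were AT3G25790, AT4G31470, AT1G27120, AT5G11550, AT5G40150, AT4G09970, AT5G24580, AT1G67590 and AT5G63040, from 2.91-fold in AT3G25790 to 2.47-fold in AT5G63040. AT5G24580 lies 5 gene positions from BIN4 in the RefSeq order.

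A second probe set could be read for 2 of the genes, and each was dimmer. That of AT1G31690 read 11.6 and 15.4 in WT, 7.67 and 7.15 in bin4-1, and 7.81 and 7.23 in bin4-2, a log2 change of -0.84 in the mean of both alleles. That of AT1G22330 read 30.2 and 24.3 in WT and 9.07 to 10.5 on the mutant arrays, a change of -1.47. Both fell on every mutant array, and neither met the limit of 32 in WT.

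The difference between the alleles was not what chose the genes and could be tested. The ceiling of 16 applies to both alleles alike and limits how far they can part. In the limma fit over all 13356 genes, 0.247% of genes were called at an adjusted p under 0.05, 0.120% with bin4-2 higher, and of the 57 genes AT1G60590 was called. It was higher in bin4-2 than in bin4-1 by 0.65 ± 0.10 on the log2 scale (SE, adjusted p = 0.031). AT3G21670 followed with 0.56 ± 0.10 (adjusted p = 0.0573), AT4G24700 with 0.49 ± 0.10 (adjusted p = 0.0877) and AT5G62210 with 0.46 ± 0.11 (adjusted p = 0.171). These did not pass, and their 95% intervals reach from 0.34 to 0.79, 0.27 to 0.71 and 0.23 to 0.70. The call of AT1G60590 was lost when either array of either mutant was left out, with adjusted p between 0.140 and 0.396. The difference itself was 0.57 to 0.72 in those fits, in which 1 group has a single array.

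Over the whole set, 47 genes (82.5%) had the higher mean in bin4-2 and 10 in bin4-1, beside 46.8% of all genes with bin4-2 higher. The median difference was 0.13 in favour of bin4-2, against -0.01 over all genes. Both bin4-2 arrays lay above both bin4-1 arrays for 28 of the 57 genes, beside 17.9% of all genes. The reverse was seen for 3 of them, beside 20.8% of all genes. An unadjusted p under 0.05 was found for 10 of the 57, beside 6.80% of all genes, and each had bin4-2 higher, beside 3.59% of all genes. The genes are not independent of each other, and these counts were not tested as a set. At the other end, AT4G31470 and AT3G49960 were lower in bin4-2 by 0.22 each, with 95% intervals from -0.49 to 0.04 and without passing.

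The same lean was seen in other falling genes. Among 750 other genes at least 2-fold lower in each allele, 70.4% had the higher mean in bin4-2, with a median difference of 0.09. An unadjusted p under 0.05 was found for 24% of those genes, against 17.5% of the 57. Among 5089 genes under 16 on all 6 arrays, 44.5% were higher in bin4-2, with a median of -0.01. For the 144 genes with the opposite pattern, under 16 in WT and at least 32 on every mutant array, 51.4% were higher in bin4-2. For 45 of the 57 genes the 95% interval of the difference between alleles lay within 0.5 of 0 on the log2 scale.

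**Figure D3:**
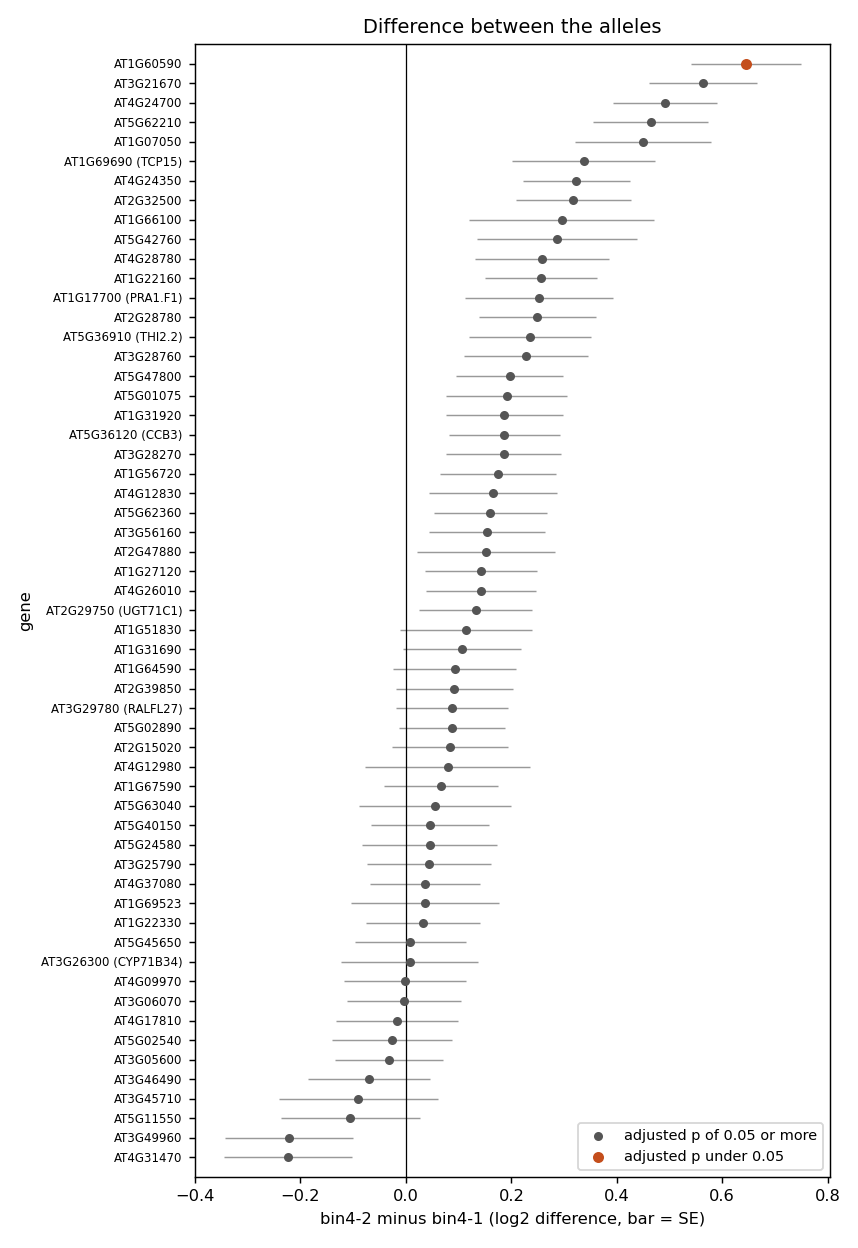
Difference between the alleles for each of the 57 genes, as bin4-2 minus bin4-1 on the log2 scale, with bars for limma's SE. Points right of 0 are higher in bin4-2, which holds for 47 genes, and the orange point marks AT1G60590, the gene with an adjusted p under 0.05.

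Because the study asks about chromatin that spreads along the chromosome, the place of the genes was compared with that of all genes. The set was spread over all 5 nuclear chromosomes, with 15 genes on chromosome 1, 6 on 2, 12 on 3, 10 on 4 and 14 on 5. As shares, these were 26.3%, 10.5%, 21.1%, 17.5% and 24.6%, where the 12224 ordered genes gave 26.3%, 15.3%, 20.5%, 14.4% and 23.4%. No member of the set was the nearest measured gene to another. The closest pairs, AT4G12830 with AT4G12980 and AT5G62210 with AT5G62360, lay 15 gene positions apart.

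Windows around the centromeres, set by locus number, held 12 of the 57 genes, or 21.1%, where they held 12.1% of all ordered genes. Of genes with both WT arrays at 32 or more they held 8.67%, and of the other genes at least 2-fold lower in each allele 12.3%. Of the 12 genes, 5 lay on chromosome 3, namely AT3G28270, AT3G28760, RALFL27, AT3G45710 and AT3G46490. Chromosome 5 gave CCB3, THI2.2 and AT5G40150, and chromosome 1 gave AT1G31690 and AT1G31920. AT2G15020 and AT4G09970 were the others. No test was made of this share, which was not a planned comparison, and 12 genes carry it.

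The 114 nearest measured genes, one on each side, had a median log2 change of -0.09 in the mean of both alleles, against -0.08 over all genes. Over genes whose mean log2 reached 4 the neighbours' median turned to 0.0027. In bin4-1, 20.2% of them passed lower and 19.3% higher, where all genes gave 25.0% and 22.0%. In bin4-2 it was 22.8% and 16.7%, where all genes gave 26.6% and 21.1%. For the 57 neighbours that are the very next gene, the median was -0.11. Single neighbours were at least 2-fold lower in 8 cases, or 7.02%, beside 6.66% of all genes. STOMAGEN, a secreted peptide gene that raises the number of stomata, lies next to AT4G12980 and changed by -1.68 in bin4-1 and -1.56 in bin4-2. AT1G31710, next to AT1G31690, changed by -1.09 and -1.20. Other neighbours rose by as much. AT1G66090, next to AT1G66100, changed by 1.88 in each allele, and AT1G07040, next to AT1G07050, by 1.51 and 1.55.

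Farther out, the genes 2 to 5 measured places away had medians between -0.12 and -0.18. In the third place 36.3% passed lower in bin4-1 and 37.2% in bin4-2, the highest shares of the 5 places, with a median of -0.18. From the fifth place in to the first, the shares passing lower in bin4-1 were 25.7%, 28.3%, 36.3%, 27.2% and 20.2%. In bin4-2 they were 27.4%, 32.7%, 37.2%, 32.5% and 22.8%. Of the 114 nearest genes, 54 had a WT mean log2 of at least 5, beside 5365 of all 13356 genes. Genes this bright were thus no rarer among the neighbours than among all genes. A dim gene has little room to fall in either group, and spreading of chromatin was not tested. Genomic length was similar, with a median of 2005 bases against 2105 for all genes and 2258 for those at 32 or more on both WT arrays.

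**Figure D4:**
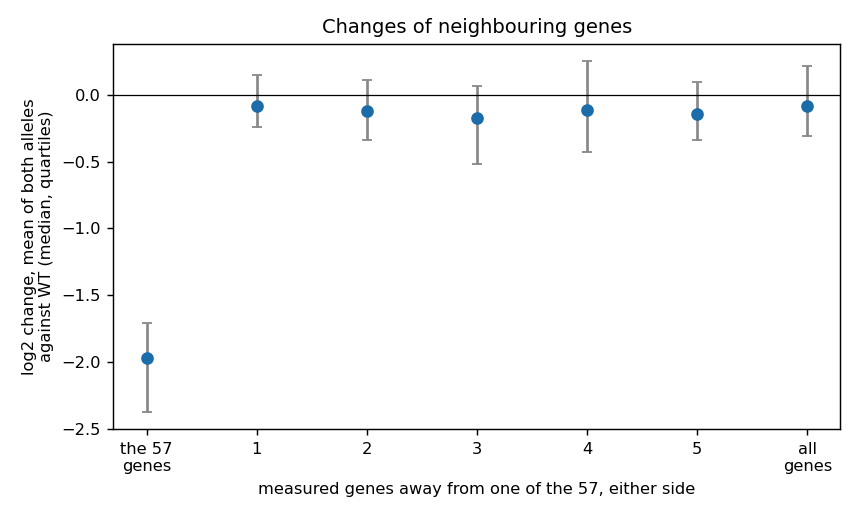
Log2 change in the mean of both alleles against WT, as medians with quartiles, for the 57 genes, for measured genes 1 to 5 places away on either side, and for all genes. The neighbours' medians lie between -0.18 and -0.09, near the -0.08 of all genes, while the 57 genes lie at -1.97.

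Close to the limits, membership rests on small differences. AT5G63040 was just inside both, with 45.0 and 32.04 in WT, 15.5 and 14.7 in bin4-1, and 15.9997 and 15.3 in bin4-2. AT5G45650 and AT2G32500 followed, with highest mutant values of 15.9 and 15.8. Just outside, AT1G65900 read 52.9 and 31.6 in WT and 9.01 to 11.8 on the mutant arrays. AT4G32350 and SCPL27 missed with lower WT values of 31.3 each. GH9B8, of the GH9 family of cellulases, missed through a bin4-2 array at 16.1 after 58.7 and 54.9 in WT. AT5G04960 and AT3G50270 missed with highest mutant values of 16.1 and 16.3.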

How the data were processed

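Total RNA of seedlings was labelled with biotin by the standard Affymetrix protocol, per the labels' protocols. The deposited values are intensities on a linear scale that the authors computed with RMA, per the submitters' processing notes, with no version or settings stated. Of 22810 probe sets, 64 are controls, 13513 carry 1 gene in the platform annotation, 503 several and 8730 none. The 13513 were matched by gene number to the RefSeq table (TAIR10.1, 13436 matched), used for names, order and length. The brightest probe set was kept for the 146 genes with several, which left 13356 genes. For arrays, their number limits the precision.

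Log2 intensities were fitted with limma 3.58.1 in R 4.3.3 (3 group means, all 6 arrays, 3 residual and 8.25 prior degrees of freedom), with two-sided tests and Benjamini-Hochberg adjustment over all genes. The script was tested on simulated data. Tables were made in Python 3.11.15 with pandas 2.3.3 and numpy 2.4.6, plots with matplotlib 3.10.9.

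The 57 genes and the gene lists were chosen with earlier results of these data known, and the lists of UGT, TCP, RALF-like, PRA1 and CCB genes after the 57 were seen. Lists were matched on symbols and synonyms, and those holding none of the 57 genes are not reported. Any of the 57 genes may be named. Values on every array were to be given for the 15 greatest falls and the 5 highest WT means. The same held for genes called between the alleles (or else the 6 that differed most). It also held for the 3 genes nearest each limit on either side, and for genes of the set that adjoin or share a list. None were found to adjoin or share a list, but genes with a locus code alone could not be placed in a list. Non-members were to be named as neighbours, near misses or the 3 most changed genes of a list shared by genes of the set. As no list was found to be shared, the other genes named from the lists were added outside that rule, with the values known. So were the array values of genes with a symbol and of AT1G07050. The gene table holds no descriptions, so no role is given to a locus code. Windows around the centromeres were not in the plan. They run, by locus number, from AT1G31000 up to AT1G48000 on chromosome 1. On chromosome 2 the limits are AT2G03600 and AT2G16600. On chromosome 3 they are AT3G27700 and AT3G47500. On chromosome 4 they are AT4G03400 and AT4G10200, and on chromosome 5 AT5G25600 and AT5G40200. Promoter motifs were planned but not analysed here.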

Additional observations from a re-analysis of the deposited data

Results flagged for a closer look

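AT1G60590 fell less in bin4-2 than in bin4-1. The test of the difference between the alleles gave 0.65 on the log2 scale (limma adjusted p = 0.031), with both bin4-2 arrays at 12.6 and the bin4-1 arrays at 8.49 and 7.65. Groups of 2 arrays are too small to search for single arrays far from the others.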

How the results depend on the processing

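The 57 genes became 107 when every probe set was used, named or not, 14 with mutants under 12, 21 with WT at 48 or more, and 57 to 68 when 1 array was left out. Their median log2 change was -1.97 to -1.88 without 1 array, and was moved by leaving out either WT array. All probe sets (22810 less 64 controls) gave 11846 calls in bin4-1 and 12031 in bin4-2 against WT. Over the 13356 genes, a smaller number of features, the calls were 6271 and 6377. These counts are thus not on the same base, and any further cause was not tested. Between the alleles, 33 genes were called, against 127 with an intensity trend, 55 with all probe sets and 7 to 51 without 1 array. Of the 57 genes, 1 was called, against 2 with the trend, 2 of the 49 whose mean log2 reached 4, 0 with the replicate block (title suffix), and 0 to 2 of the 57 to 68 genes chosen anew without 1 array. In those fits the lone array of a group is assumed to vary like the others. The block left 25 genes called and gave AT1G60590 an adjusted p of 0.0577. Arrays of 1 suffix did not deviate together (correlations -0.04 to 0.08), so the suffix is not taken as pairing. AT3G21670 passed with the trend (limma adjusted p = 0.0448), over genes whose mean log2 reached 4 (0.0372) and without either WT array (0.0441). The neighbours' median change of -0.09 turned to 0.0027 over genes whose mean log2 reached 4, and the cause was not tested. The values of the median allele difference and of AT1G60590, AT3G21670, AT4G24700 and AT5G62210 under these settings were added after seeing the data, and all kept their direction. Dim probe sets limit what can be read, since no detection limit was set. Promoter motifs were not run.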
